A study of Mus musculus with 8 samples.

Results

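Slow myonuclei are the nuclei of muscle fibres that use Myh7, the slow (type I) myosin heavy chain. They were looked for in 8 single-nucleus libraries of the gastrocnemius, a calf muscle made mostly of fast fibres. A retained nucleus (more than 200 and fewer than 6000 genes, under 6% mitochondrial UMIs) was called Slow when it held at least 3 UMIs of Myh7 and when Myh7 made up at least 40% of its UMIs over Myh1, Myh2, Myh4 and Myh7. The nuclei were thus chosen by the UMI counts of 4 myosin genes. With this rule 780 of 64803 retained nuclei were Slow, which is 1.20%. For comparison, 39957 nuclei were dominated by Myh4 (type IIb), 3580 by Myh1 (type IIx) and 2969 by Myh2 (type IIa). The values of these 4 genes in the Slow nuclei are therefore given as a description.

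All libraries came from wild-type C57BL/6 mice. The Young mice were 3 months old and the Old mice 20 months old. The Running mice were 11 months old when they began a treadmill training of 2 months, and the Sedentary mice were the untrained group of that experiment. Each group had 2 libraries, 1 made with 10x Genomics chemistry and 1 in a second library set made on another droplet platform, and nothing in the sources used here says how many animals or which sex went into a library. The nuclei came from the whole muscle, with no sort for fibre type. The p-values below therefore measure a spread between libraries. In the class comparisons it is the spread of the class difference between libraries, which includes how that difference varies between the library sets. In the comparisons of groups within Slow nuclei and of the Slow share, the library set was a covariate.

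Slow fibres contract slowly, resist fatigue and take most of their energy from oxidative metabolism, while type IIb fibres contract fast and rely on glycolysis and glycogen. Slow and fast fibres build the same sarcomere from different members of the same gene families: myosin heavy and light chains, the 3 troponins, tropomyosin and the calcium pump of the sarcoplasmic reticulum. The slow programme is held by calcium signalling through calcineurin and NFAT, by TEAD and MEF2 factors, by Prox1 and by a pair of microRNAs encoded in slow myosin genes, while Sox6, Eya1, Tbx15 and Maf favour the fast programme.

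The microRNAs are shown because each lies in a slow myosin gene and both are known to act on Sox6, the transcription factor that represses slow genes. They were not measured in these libraries. In RefSeq on GRCm38.p6, miR-208b lies at chr14:54975710-54975731 on the minus strand, in an intron of Myh7, and miR-499 lies at chr2:155622893-155622913 on the plus strand, in an intron of Myh7b. The capitals mark the seed, bases 2 to 8, of which both share the first 6.
mmu-miR-208b-3p: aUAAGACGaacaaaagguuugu
mmu-miR-499-5p: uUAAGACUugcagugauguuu

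In the Sox6 transcript (GRCm38, chromosome 7, minus strand), the 6046 bases after the stop codon held the 6-base complement shared by both seeds, GTCTTA, at 8 places. At 4 of them the match ran to the full 7 bases of a seed, and these are printed with the match in capitals. The first is the complement of the miR-208b seed and the other three of the miR-499 seed. The first stretch also runs into the second, so they overlap in the genome.
Sox6 at chr7:115476625-115476652: tgcccatcgcCGTCTTAtgagtcttaca
Sox6 at chr7:115476616-115476643: ccgtcttatgAGTCTTAcatttctgtct
Sox6 at chr7:115476303-115476330: ctattttaaaAGTCTTAcaggagacact
Sox6 at chr7:115476281-115476308: gacactgcaaAGTCTTAgacaatctttg
Of 21020 genes with annotated sequence after the stop codon, 9.46% held AGTCTTA, 1.52% held CGTCTTA and 25.04% held GTCTTA, each counted whatever the length of the sequence.

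Slow nuclei were spread very unevenly over the libraries. Among the 10x libraries, the Sedentary library held 370 Slow nuclei of 10587 (3.49%, 95% Wilson interval 3.16 to 3.86) and the Old library 150 of 11686 (1.28%, 1.095 to 1.504). The Running 10x library held 7 of 12991 (0.0539%, 0.0261 to 0.111), and the Young 10x library held 0 of 11795. For that library a limit of 3 nuclei was taken, a share of 0.0254%, while its Wilson interval ended at 0.0326%. These intervals cover counting error only.

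In the second library set, the Young library held the most, 166 of 4510 (3.68%, 3.17 to 4.27). The Old library of that set had 34 of 4772 (0.712%, 0.510 to 0.994), the Running library 28 of 4228 (0.662%, 0.459 to 0.955) and the Sedentary library 25 of 4234 (0.590%, 0.400 to 0.870). The 3 shares other than that of the Young library overlap in their intervals. The group with the most Slow nuclei in one library set was not the one with the most in the other: Young was lowest among the 10x libraries and highest in the second set.

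**Figure D1:**
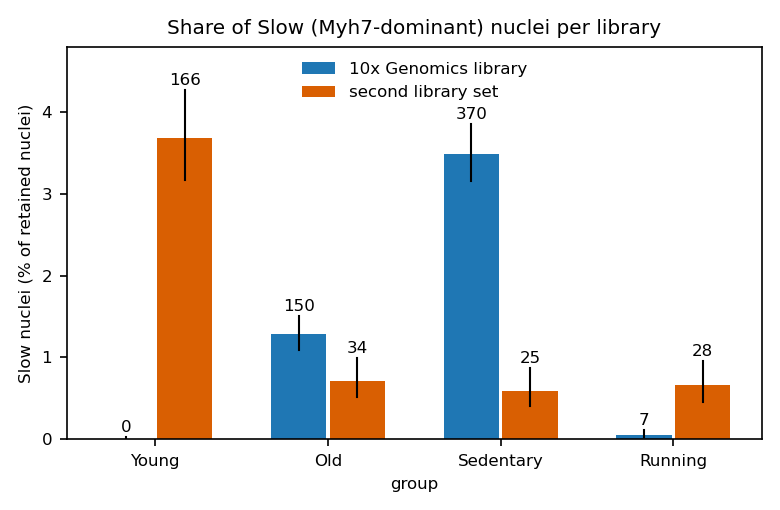
Share of Slow nuclei among retained nuclei (%, y axis) in each group (x axis) and library set (colour). Bars are single libraries, black lines 95% Wilson intervals (for the Young 10x library, with 0 Slow nuclei, up to a limit of 3 nuclei), and the numbers over the bars count Slow nuclei. The high bars, Young at 3.68% and Sedentary at 3.49%, come from different library sets.

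Neither the age nor the running comparison of the Slow share passed its test. With the library set as a covariate and 3 residual degrees of freedom, edgeR's quasi-likelihood test gave a log2 fold change of 0.28 (SE 3.49) for Old over Young, with a Benjamini-Hochberg adjusted p of 0.94 over 5 classes of nuclei. For Running over Sedentary it gave -3.71 (SE 3.63), with an adjusted p of 0.66. Within the library sets the age ratio was 50.5-fold higher in Old among the 10x libraries and 5.17-fold lower in Old in the second set. The first of these takes the limit of 0.0254% for the Young 10x library, which held no Slow nucleus, and is not a lower bound. The running ratio was 64.9-fold lower in Running among the 10x libraries and 1.12 in the second set. The direction of the fitted age difference changed when the Young 10x library, with no Slow nucleus, was left out (-2.04), and that of the running difference when the Sedentary 10x library was left out (0.21).

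The depth of the libraries bears on such counts. Retained nuclei had a median of 1664 to 3001 UMIs in the 10x libraries and of 909 to 1690 in the second set, and Slow nuclei had medians of 2207 to 4161 and of 1053 to 1795. After each nucleus was thinned to 500 UMIs, leaving out shallower nuclei, 458 Slow nuclei were found. They were 87 in the Old, 0 in the Young, 5 in the Running and 180 in the Sedentary 10x library, and 24, 111, 29 and 22 in the same order in the second set, so the order of the libraries by count was kept except that the Old and Running libraries of the second set changed places. Any pair of 10x libraries shared 30 to 46 barcodes.

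Some nuclei lay near the cut-offs. Slow nuclei with a Myh7 share of 40 to 45% numbered 67 over the libraries, 42 of them in the Young library of the second set, and 43 nuclei fell just short, at 35 to 40%, 24 of them in that library. At exactly 3 Myh7 UMIs there were 29 Slow nuclei, and 50 nuclei met the share with 2 UMIs, 34 of those in the Sedentary 10x library. Endothelial nuclei, which should lack Myh7, met the rule in 5 of 1262 cases, 4 of them in the Old 10x library. The share of endothelial nuclei with any Myh7 UMI was 0 to 6.93% in the 10x libraries and 7.69 to 46.2% in the second set.

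The Slow nuclei of the library sets differed in how pure their myosin was. In the 10x libraries the median Myh7 share was 96.2% (Old), 94.9% (Running) and 93.8% (Sedentary), and Myh7 was the only one of the 4 myosins seen in 45 of 150, 1 of 7 and 144 of 370 Slow nuclei. In the second set the median Myh7 share was 60.6% (Old), 50.0% (Young), 49.1% (Running) and 55.6% (Sedentary), and no Slow nucleus held Myh7 alone. Myh7 was still the largest of the 4 myosins in all but 61 of the 780 nuclei. Of those 61, 33 were in the Young library of the second set and 14 in the Running library of that set, which held 28 Slow nuclei.

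The other myosin in these nuclei was most often Myh4. Slow sums of the 10x libraries held 277 UMIs of Myh4 beside 82 of Myh1 and 33 of Myh2 (Old), and 358 beside 120 and 113 (Sedentary). At least 3 UMIs of Myh4 were seen in 13.3% (Old), 28.6% (Running) and 8.38% (Sedentary) of the 10x Slow nuclei, against 55.9% (Old), 98.2% (Young), 100% (Running) and 92.0% (Sedentary) in the second set. Myh2, the myosin of the type IIa fibres that border on slow fibres in most classifications, reached 3 UMIs in at most 18.1% of the Slow nuclei of a library and Myh1 in at most 25.3%, both in the Young library of the second set. Summed over nuclei, Myh4 stood at 360 to 1022 CPM (the UMIs of a gene after scaling every sum to the same total) in 10x Slow nuclei and at 2916 to 8423 CPM in the second set. Endothelial nuclei carried Myh4 at 765 to 1660 CPM in the 10x libraries and at 8062 to 13002 CPM in the second set, more than the Slow nuclei of the same library in each of the 7 libraries with Slow nuclei. How much of the Myh4 in Slow nuclei is free RNA was not tested.

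**Figure D2:**
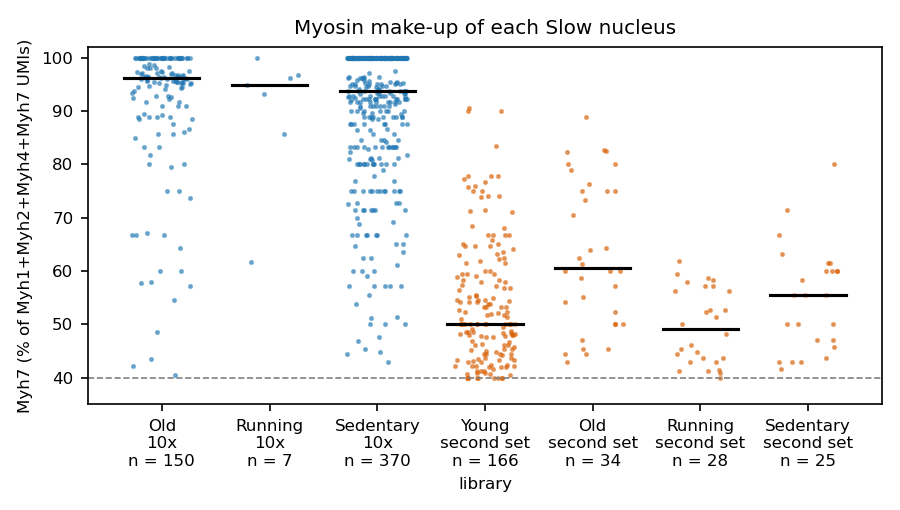
Myh7 UMIs as a percentage of the Myh1, Myh2, Myh4 and Myh7 UMIs (y axis) in each Slow nucleus, by library (x axis, with the number of nuclei). Points are nuclei, black lines library medians, and the dashed line is the 40% cut-off of the rule. Medians are 93.8 to 96.2% in the 10x libraries and 49.1 to 60.6% in the second set.

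The label Slow was checked against genes that the rule did not use, in the 6 libraries with at least 20 Slow nuclei, since the 7 Slow nuclei of the Running 10x library were too few for a sum. Tnnt1, slow skeletal troponin T, had a UMI in 92.4 to 96.0% of Slow nuclei of a 10x library, against 2.62 to 3.87% of Myh4-dominant and 3.002 to 5.39% of endothelial nuclei. In the second set the shares were 70.6 to 96.4%, 4.73 to 37.9% and 7.69 to 53.8%, so the background was higher there but below that of the Slow nuclei. Atp2a2, the calcium pump SERCA2 of slow and cardiac muscle, was detected in 96.2 to 98.0% and 70.6 to 100% of Slow nuclei in the 10x libraries and the second set. Myl2, the slow regulatory light chain, was detected in 56.2 to 94.7% and 52.0 to 76.5%. At least 2 UMIs over the 7 slow markers other than Myh7 were found in 775 of the 780 Slow nuclei over all libraries. The same was true of 5.57 to 15.5% of the other nuclei in 10x libraries, and of 54.4% (Young), 19.5% (Old), 19.1% (Running) and 5.44% (Sedentary) of those in the second set, so it set Slow nuclei apart least in the Young library of that set.

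Slow nuclei were next compared with each fast class in the same libraries, on UMIs summed per library and class, with the library as a block. The classes were defined on myosin UMIs alone, and the tested genes had no part in them. Nuclei in no class numbered 5291 of 11686 (Old), 3507 of 11795 (Young), 3371 of 12991 (Running) and 4002 of 10587 (Sedentary) in the 10x libraries. In the second set they were 1226 of 4772, 47 of 4510, 8 of 4228 and 65 of 4234 in the same order. How many nuclei of other cell types the Myh4-dominant class holds there was not tested. There were 30 sums of a library and class, and a Slow sum held 28261 to 994567 UMIs. Of 13925 genes outside the rule, 1002 were higher and 2196 lower in Slow than in Myh4-dominant nuclei (edgeR's quasi-likelihood test, Benjamini-Hochberg adjusted p under 0.05), which is 7.20% and 15.8% of the genes. Against Myh1-dominant nuclei 630 were higher and 897 lower (4.52% and 6.44%), and against Myh2-dominant nuclei 310 were higher and 410 lower (2.23% and 2.94%). The number of calls thus fell from type IIb to IIx to IIa, although the type IIb sums were also the deepest. The comparisons share the Slow sums. 236 genes were higher against all 3 classes, which is 23.6%, 37.5% and 76.1% of the genes called higher in each, and 238 were lower against all 3, or 10.8%, 26.5% and 58.0%.

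The excess of lower over higher genes depended on the libraries. In the 10x libraries alone, 1497 genes were higher and 1301 lower against Myh4-dominant, 797 and 678 against Myh1-dominant and 319 and 206 against Myh2-dominant nuclei. In the second set alone the counts were 532 and 563, 288 and 297, and 208 and 179. The median log2 fold change of all genes was -0.27, -0.13 and -0.11 against the 3 classes, and the medians of gene lists below are to be read against these. Counts of called genes in the lists are likewise to be read against the shares of all genes given above.

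The slow isoforms of the sarcomere were among the genes with the greatest rises in Slow nuclei. Of 17 slow contractile genes outside the rule, 16 were higher against Myh4-dominant, 14 against Myh1-dominant and 10 against Myh2-dominant nuclei and none was lower (median log2 fold change 4.61, 4.13 and 2.29). They fell into genes that set Slow nuclei apart from all fast classes and genes shared with type IIa nuclei. The thin filament genes belonged to the first kind. Tnnt1 was measured in Slow nuclei at 1560 (Old) and 1398 CPM (Sedentary) in the 10x libraries, and at 9200 (Old), 7930 (Young), 5240 (Running) and 4459 CPM (Sedentary) in the second set. In Myh4-dominant nuclei of the same libraries Tnnt1 stood at 7.5, 14.9, 247, 529, 165 and 73.6 CPM, and no Slow value overlapped with these. Its log2 fold change was 5.48 (SE 0.30) against Myh4-dominant, 5.91 (SE 0.33) against Myh1-dominant and 5.34 (SE 0.32) against Myh2-dominant nuclei.

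Tnnc1, the slow and cardiac calcium-binding troponin, was higher by 5.52 (SE 0.34), 5.62 (SE 0.37) and 5.57 (SE 0.37) on the log2 scale in the same order. Tnni1, the slow inhibitory troponin, was higher by 5.48, 5.52 and 5.43, and Tpm3, slow tropomyosin, by 5.34, 5.86 and 5.65. Atp2a2 was higher by 5.30 (SE 0.22), 5.92 (SE 0.24) and 5.10 (SE 0.23). For each of these 5 genes the differences in the 10x libraries exceeded those in the second set, as in Tnnt1 against Myh4-dominant nuclei with 7.15 in the 10x libraries and 4.75 in the second set.

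The second kind of gene differed less from Myh2-dominant nuclei than from the other fast classes. Myl3, the slow essential light chain, was higher by 4.61 (SE 0.35) against Myh4-dominant, 4.34 (SE 0.39) against Myh1-dominant and 2.29 (SE 0.36) against Myh2-dominant nuclei, and Myl2 by 4.86, 5.22 and 3.13. Casq2, the calsequestrin of slow and cardiac muscle, was higher by 3.77, 2.32 and 1.25. Myoz2, a Z-disc protein that binds calcineurin, was higher by 4.69 and 4.13 against Myh4- and Myh1-dominant nuclei but by only 0.78 (SE 0.40, adjusted p = 0.32 in edgeR's test) against Myh2-dominant nuclei. Lmod2, a thin filament length regulator, Ankrd2, a stretch-responsive protein, and Csrp3, a Z-disc protein, were likewise called against Myh4- and Myh1-dominant nuclei (log2 fold changes of 1.47 to 3.91) and not against Myh2-dominant ones. Actn2 (2.72) and Mybpc1 (1.80) were called against Myh4-dominant nuclei alone. Pln, the inhibitor of SERCA2, was the one tested member called in no comparison (0.14, -0.57 and -0.16).

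The fast isoforms were lower, by less. All 14 fast contractile genes outside the rule were lower against Myh4-dominant, 12 against Myh1-dominant and 8 against Myh2-dominant nuclei (median -1.99, -1.19 and -0.76). Tnnt3, fast troponin T, fell by 1.98 (SE 0.17), 1.76 (SE 0.16) and 1.53 (SE 0.16) on the log2 scale against the 3 classes, and Myoz1 by 2.49, 1.86 and 1.29. Atp2a1, the fast calcium pump SERCA1, fell by 1.48, 1.15 and 0.90. Pvalb, the calcium buffer parvalbumin, fell by 2.01 against Myh4- and 0.86 against Myh1-dominant nuclei and stood at -0.14 (SE 0.22) against Myh2-dominant nuclei. Actn3, the fast alpha-actinin, was lower against Myh4-dominant nuclei alone (-2.26, SE 0.28). Mylk4, a myosin light chain kinase, and Mybpc2 were lower against Myh4-dominant (-2.77 and -2.70) and Myh1-dominant nuclei (-1.91 and -1.34) and were not called against Myh2-dominant nuclei.

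Because the switch is one of partners, slow and fast members of a pair were also set against each other within each sum, as the log2 of (slow UMIs + 0.5) over (fast UMIs + 0.5). Of 12 pairs outside the rule, 9 had their highest ratio in the Slow nuclei in all 6 libraries. The median ratio of Tnnt1 to Tnnt3 was 2.05 in Slow, -7.55 in Myh2-, -9.32 in Myh1- and -10.2 in Myh4-dominant nuclei of the 10x libraries, and 1.34, -4.46, -5.44 and -4.61 in the second set. The ratio of Atp2a2 to Atp2a1 was 1.72 in 10x Slow nuclei and 1.28 in the second set, above 0 in all 6 libraries, and at most -3.55 in any sum of the other classes. By contrast Casq1 exceeded Casq2 in 5 of 6 Slow sums.

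The exceptions were Mybpc1 over Mybpc2 (highest in Slow in 2 of 6 libraries), Actn2 over Actn3 (3 of 6) and Ldhb over Ldha (5 of 6). In those pairs the Myh2-dominant nuclei were close: the median ratio of Actn2 to Actn3 was 5.28 in Slow and 4.90 in Myh2-dominant nuclei of the 10x libraries, with ranges that overlapped, and -2.84 in Myh4-dominant nuclei.

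**Figure D3:**
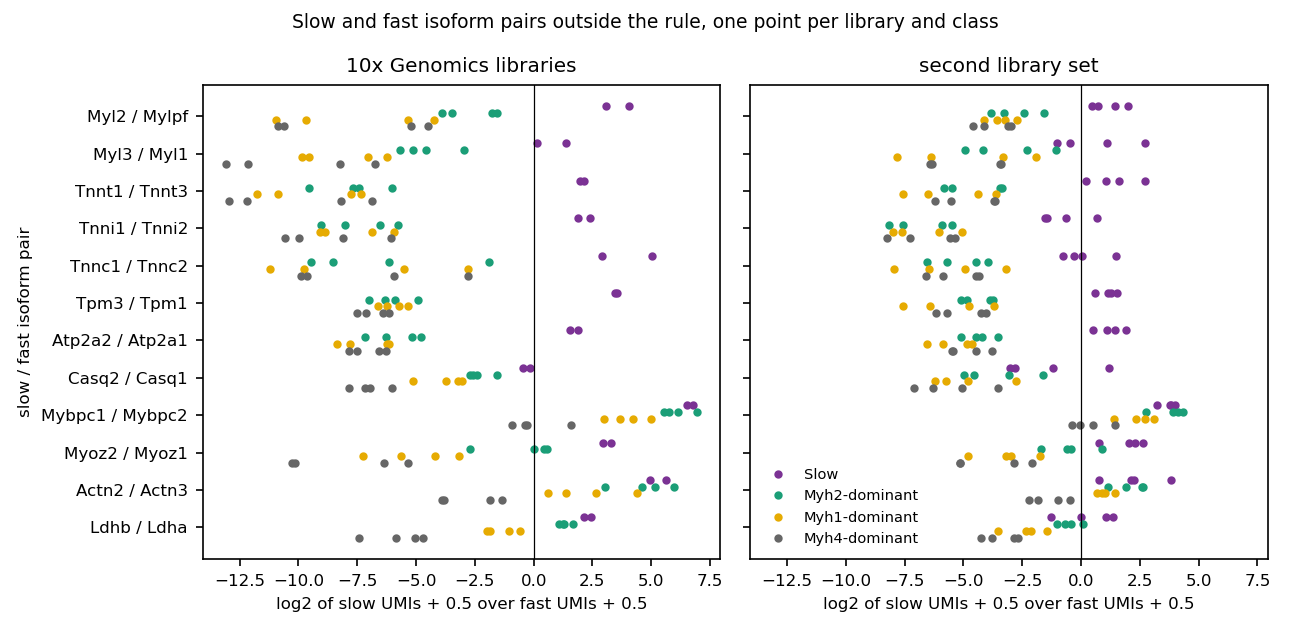
Log2 ratio of the slow to the fast member (x axis) for 12 gene pairs outside the rule (y axis), in the 10x libraries (left) and the second library set (right). Each point is 1 library and class of nuclei, coloured by class. Slow nuclei lie to the right of the other classes in most pairs, except for Mybpc1/Mybpc2, Actn2/Actn3 and Ldhb/Ldha, and the gap is narrower in the second set.

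The genes whose level followed Myh7 most closely over the 30 sums were Tnnt1 (Spearman's rho 0.97), Tpm3 (0.94), Atp2a2 (0.93), Myl2 (0.93) and Myl3 (0.87). The next were Tmem64 (0.85) and Kif5b (0.85). These sums share libraries and depth, and they were split by the UMIs of Myh7 itself, so the values are a description. The 250 bases upstream of the transcription start (RefSeq, GRCm38.p6) are shown for Tnnt1 and for a pair of slow genes with a match to CATTCC, the core of the TEAD motif (MCAT), on either strand in capitals.
Tnnt1 at chr7:4515976-4516225 on the minus strand: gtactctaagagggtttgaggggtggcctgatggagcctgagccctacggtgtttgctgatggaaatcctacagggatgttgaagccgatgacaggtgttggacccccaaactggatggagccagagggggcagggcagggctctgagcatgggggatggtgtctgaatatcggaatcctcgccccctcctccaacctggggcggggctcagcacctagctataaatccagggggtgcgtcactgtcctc
Tnnc1 at chr14:31208062-31208311 on the plus strand: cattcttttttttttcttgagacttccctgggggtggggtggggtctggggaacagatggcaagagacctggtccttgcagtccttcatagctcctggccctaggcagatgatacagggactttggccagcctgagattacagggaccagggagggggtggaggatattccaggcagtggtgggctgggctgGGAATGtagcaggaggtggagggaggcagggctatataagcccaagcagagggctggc
Myl3 at chr9:110763428-110763677 on the plus strand: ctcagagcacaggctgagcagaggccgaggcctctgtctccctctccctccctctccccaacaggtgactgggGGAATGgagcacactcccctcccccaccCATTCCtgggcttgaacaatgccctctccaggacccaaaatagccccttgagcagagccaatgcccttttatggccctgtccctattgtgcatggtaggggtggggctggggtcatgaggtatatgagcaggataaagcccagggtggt
Over the 9 slow genes found in the promoter table, with 13 starts, CATTCC on either strand was present at 3 starts, those of Myh7, Tnnc1 and Myl3, and it was present in 12.6% of 32851 promoter windows of the same length. CANNTG, the E-box, was present at all 13 starts, against 66.2% of the windows. A match is a description of the letters and no evidence of binding.

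Among the called genes whose log2 CPM averaged 5 or more and whose sign did not differ between libraries, the largest rises came from the Myh7 locus and from a second slow myosin. Mhrt and Gm31251, both annotated antisense to Myh7 (GRCm38, chromosome 14, Myh7 at 54970684 to 54994626 on the minus strand, Mhrt at 54968678 to 54974349 and Gm31251 at 54979393 to 54991601 on the plus strand), were higher by 6.51 to 6.85 and by 6.89 to 7.58 on the log2 scale against the 3 classes. Their reads cannot be told apart from those of Myh7 unless the counting used strand, so they do not stand as results independent of the rule. Myh7b, the host gene of miR-499, lies on chromosome 2 and was higher by 5.75 (SE 0.41) against Myh4-dominant, 6.49 (SE 0.49) against Myh1-dominant and 6.39 (SE 0.47) against Myh2-dominant nuclei.

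Myh7b stood at 843 (Old) and 711 CPM (Sedentary) in the 10x Slow nuclei, and at 101 (Old), 397 (Young), 491 (Running) and 653 CPM (Sedentary) in the second set. In Myh4-dominant nuclei it was 2.1 to 28.1 CPM over the same libraries. It was detected in 65.4 to 82.0% of 10x Slow nuclei and in 8.82 to 40% of those of the second set, with 0 to 8.70% of endothelial nuclei as background over all libraries. The 8.82% and the 8.70% both came from the Old library of the second set, so detection there was about that of the background. Myh6, the cardiac alpha myosin next to Myh7, was also higher (4.86, 6.32 and 6.80), but it stood at only 20.2 to 109 CPM in Slow nuclei, and as a close paralog of Myh7 it may share reads with it, so its value is uncertain. Myh6 and Myh7b are also used by the intrafusal fibres of muscle spindles. Of the other intrafusal markers, Piezo2 was not called, and Egr3, Etv4 and Calb1 were too low to be tested.

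Among 37 fibre type regulators tested, 10 were higher and 15 lower in Slow than in Myh4-dominant nuclei, 4 and 9 against Myh1-dominant, and 3 and 5 against Myh2-dominant nuclei (median -0.41, -0.23 and -0.25, and 0.03, 0.02 and -0.22 in the 10x libraries alone). Of all genes 7.2%, 4.52% and 2.23% were higher and 15.8%, 6.44% and 2.94% lower against the 3 classes. The medians of all genes in the 10x libraries alone were -0.05, -0.03 and -0.02. Prox1, Vgll2 and Nfatc2 were higher against all 3 classes. Prox1, a homeobox factor that promotes slow genes, had the greatest difference of the list (4.38, SE 0.36, against Myh4-dominant, 5.15, SE 0.45, against Myh1-dominant and 4.62, SE 0.43, against Myh2-dominant nuclei). It stood at 133 (Old) and 92.8 CPM (Sedentary) in 10x Slow nuclei and at 20.2 (Old), 91.3 (Young), 25.8 (Running) and 181 CPM (Sedentary) in the second set, where the Old and Running values rest on 1 UMI each. In Myh4-dominant nuclei Prox1 was at 1.2 to 17.5 CPM. Its 10x values were far from those of the other classes, while in the second set it was too low to be fitted alone. Prox1 also marks lymphatic endothelium, and the general endothelial markers were not called in Slow nuclei.

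Vgll2, a muscle cofactor of TEAD factors, was higher by 2.11 (SE 0.24), 1.69 (SE 0.27) and 1.07 (SE 0.26), and Tead1 itself by 0.50 against Myh4-dominant nuclei alone. Nfatc2, a calcineurin-controlled factor, was higher by 1.02, 1.12 and 0.63, whereas Nfatc1, the family member best known for the slow programme, was lower against Myh4- (-0.78, SE 0.20) and Myh1-dominant nuclei (-0.73, SE 0.21). Esrrb, an oestrogen-related receptor of oxidative fibres, was higher by 3.02 (SE 0.40) and 1.41 (SE 0.41) and not called against Myh2-dominant nuclei. Ppara, a receptor that activates fatty acid oxidation genes, was higher by 1.57 against Myh4-dominant nuclei, and it fell by 0.94 (SE 0.21) on the log2 scale against Myh2-dominant nuclei.

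Ppargc1a, the coactivator PGC-1alpha of mitochondrial genes, was lower in Slow nuclei than in every fast class. It stood at 145 (Old) and 146 CPM (Sedentary) in 10x Slow nuclei and at 262 (Old), 105 (Young), 181 (Running) and 0 CPM (Sedentary) in the second set. In Myh2-dominant nuclei of the same libraries Ppargc1a was at 296, 380, 789, 423, 961 and 717 CPM. The Slow value was below the Myh2-dominant one in all 6 libraries. The log2 fold change was -0.78 (SE 0.20) against Myh4-dominant, -1.57 (SE 0.20) against Myh1-dominant and -1.86 (SE 0.20) against Myh2-dominant nuclei, with -0.46, -1.18 and -1.36 in the 10x libraries alone. Ppargc1b was lower against Myh1- (-0.56) and Myh2-dominant nuclei (-0.61).

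Sox6, a repressor of slow genes, was lower in Slow than in Myh4- and Myh1-dominant nuclei. Sox6, whose transcript carries the seed matches shown above, had 1428 (Old) and 1646 CPM (Sedentary) in 10x Slow nuclei, against 4575 and 4990 in Myh4-dominant, 2025 and 3117 in Myh1-dominant and 1584 and 2149 CPM in Myh2-dominant nuclei. In the second set the Slow values were 1231 (Old), 966 (Young), 904 (Running) and 906 CPM (Sedentary), against 1501 to 2177 CPM in Myh4-dominant nuclei. Sox6 fell by 1.61 (SE 0.16) and 0.91 (SE 0.16) on the log2 scale against Myh4- and Myh1-dominant nuclei, and its difference from Myh2-dominant nuclei (-0.43, SE 0.16, adjusted p = 0.11 in edgeR's test) did not pass. A Sox6 UMI was still present in 91.3 to 91.6% of 10x Slow nuclei, against 53.6 to 64.7% of endothelial nuclei. In the second set it was present in 60 to 80.7% of Slow and 46.2 to 73.9% of endothelial nuclei, and in the Old library the Slow share (67.6%) was below the endothelial one (73.9%), so detection there was not above that background in every library. How these levels relate to the microRNAs was not tested.

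Several other factors of the fast programme were lower against Myh4-dominant nuclei. Maf fell by 2.37 and 1.46 on the log2 scale against Myh4- and Myh1-dominant nuclei, Eya4 fell by 1.95 and 0.999, and Tbx15 fell by 0.87 and 0.54, and none of these passed against Myh2-dominant nuclei. Eya1 was lower against Myh4-dominant nuclei only (-0.98), while Six4 was higher against Myh4-dominant nuclei (0.63). Mef2a was lower against Myh4- and Myh1-dominant nuclei (-1.07 and -0.61).

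**Figure D4:**
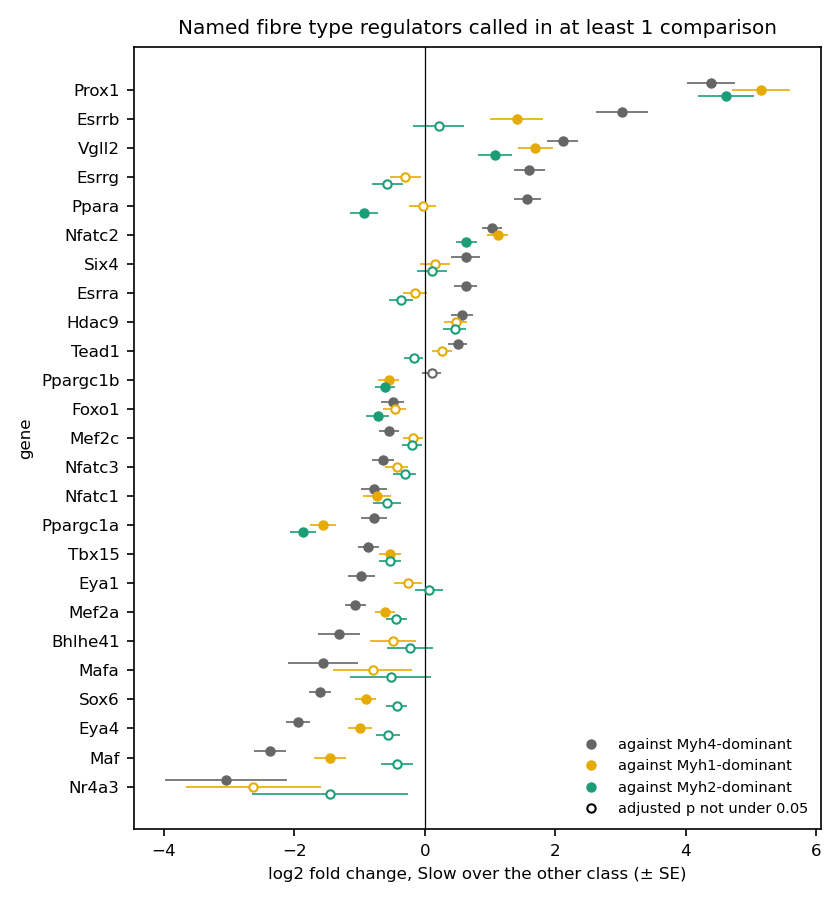
Log2 fold change of Slow over each fast class (x axis, with SE as bars) for named fibre type regulators called in at least 1 comparison (y axis). Colours are the classes, and open circles did not pass an adjusted p of 0.05. Prox1 stands far to the right of all others in the 3 comparisons, and Ppargc1a is lower in all 3.

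More genes of oxidative metabolism were called against Myh4-dominant than against Myh2-dominant nuclei. Of 32 genes of fatty acid uptake and oxidation, 19 were higher and 2 lower against Myh4-dominant, 6 and 2 against Myh1-dominant, and 0 and 3 against Myh2-dominant nuclei (median 0.74, 0.06 and -0.32). The counts here and for the respiratory chain and glycolysis lists below are to be read against all genes. Of these 7.2%, 4.52% and 2.23% were higher and 15.8%, 6.44% and 2.94% lower against the 3 classes. Lpl, the lipase that frees fatty acids from circulating lipids, was higher by 2.54 (SE 0.19) and 1.21 (SE 0.19) against Myh4- and Myh1-dominant nuclei, and Fabp3, the fatty acid carrier of heart and slow muscle, by 2.46 (SE 0.22) and 1.24 (SE 0.23). Bdh1, which interconverts ketone bodies, was higher by 2.93 and 1.98. Cd36, the fatty acid transporter, was higher against Myh4-dominant nuclei alone (1.69, SE 0.24), more so in the 10x libraries (2.93) than in the second set (0.92). Ucp3, an uncoupling protein of muscle mitochondria, fell by 1.51, 1.81 and 1.03 on the log2 scale against the 3 classes.

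The nuclear-encoded respiratory chain and citric acid cycle also had most of its higher calls against Myh4-dominant nuclei. Of 42 genes, 20 were higher and 2 lower against Myh4-dominant nuclei, 3 and 6 against Myh1-dominant, and 0 and 4 against Myh2-dominant nuclei (median 0.51, 0.01 and -0.08). The library sets differed in sign for the last 2 medians, which were -0.20 and -0.35 in the 10x libraries and 0.41 and 0.27 in the second set. Mb, myoglobin, stood at 253 (Old) and 109 CPM (Sedentary) in 10x Slow nuclei, and at 7344 (Old), 3764 (Young), 1962 (Running) and 653 CPM (Sedentary) in the second set. In Myh4-dominant nuclei Mb was at 28.8 and 24.4 CPM in those 10x libraries and at 684, 979, 322 and 169 CPM in the second set. The Slow level was thus higher in every library, by 2.44 (SE 0.28) on the log2 scale. Cox6a2, the muscle isoform of a cytochrome oxidase subunit, was higher by 1.33 and 1.17 against Myh4- and Myh1-dominant nuclei. Against the trend of the list, Idh3a and Cs, enzymes of the citric acid cycle, were lower against all 3 classes (Idh3a -0.80, -1.42 and -1.24; Cs -0.51, -0.76 and -0.52).

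Glycolysis and glycogen genes were lower in Slow nuclei. Of 30 genes, 24 were lower and 1 higher against Myh4-dominant, 16 lower against Myh1-dominant, and 5 lower against Myh2-dominant nuclei (median -1.15, -0.72 and -0.28). Phkg1, the catalytic subunit of muscle phosphorylase kinase, fell by 2.33 (SE 0.16), 1.77 (SE 0.16) and 0.95 (SE 0.16) on the log2 scale, and Pygm, glycogen phosphorylase, by 2.24, 1.37 and 0.66. Pfkfb1, which sets the level of a phosphofructokinase activator, fell most against Myh2-dominant nuclei (2.01, SE 0.20), while Pfkfb3 of the same family was lower against Myh4-dominant nuclei alone (-2.77, SE 0.30). Pkm, Gapdh and Aldoa were lower against Myh4-dominant nuclei alone (-1.06, -0.64 and -0.83).

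**Figure D5:**
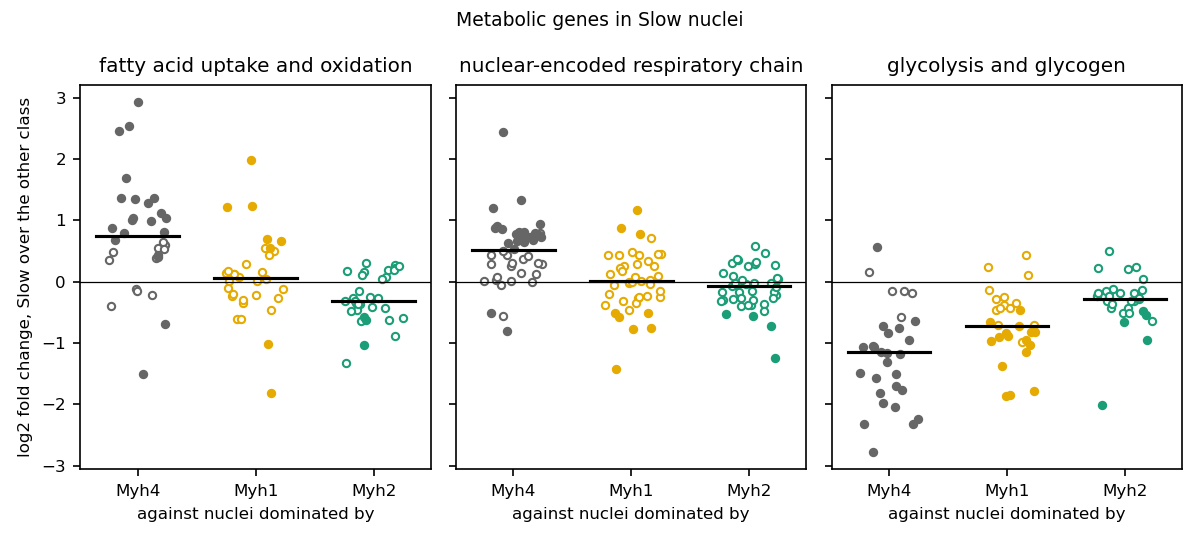
Log2 fold change of Slow over nuclei dominated by Myh4, Myh1 or Myh2 (y axis) for genes of 3 metabolic lists. Points are genes, filled where the adjusted p was under 0.05, and black lines are list medians. The medians run from 0.74 to -0.32 for fatty acid genes, from 0.51 to -0.08 for respiratory chain genes and from -1.15 to -0.28 for glycolysis genes.

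Lactate is the substrate of the histone mark that the study was about. Of 9 genes of lactate use, 2 were higher and 0 lower against Myh4-dominant nuclei. Against Myh1-dominant nuclei 1 was higher and 2 lower, and against Myh2-dominant nuclei 0 and 2. The medians of this list were 0.24, -0.01 and -0.15. Ldhb, the lactate dehydrogenase subunit of oxidative tissues, stood at 241 (Old) and 104 CPM (Sedentary) in 10x Slow nuclei, against 6.6 and 3.5 in Myh4-dominant and 171 and 84.1 CPM in Myh2-dominant nuclei. Its log2 fold change was 3.58 (SE 0.40) against Myh4-dominant, 1.67 (SE 0.41) against Myh1-dominant and 0.13 (SE 0.40) against Myh2-dominant nuclei. Ldha, the subunit that favours lactate formation, fell by 1.51 (SE 0.20) and 0.82 (SE 0.20) against Myh4- and Myh1-dominant nuclei and stood at -0.18 (SE 0.21) against Myh2-dominant ones. Slc16a1, the transporter MCT1 linked to lactate uptake, was higher against Myh4-dominant nuclei (1.70, SE 0.22), and Slc16a3, the exporter MCT4, was lower against Myh4- (-2.32, SE 0.23) and Myh1-dominant nuclei (-1.84, SE 0.24). Of 16 candidate writers and erasers of histone lactylation, 3, 1 and 0 were lower and none was higher against the 3 classes (median -0.27, -0.05 and -0.02). The counts in this paragraph are to be read against all genes, of which 7.2%, 4.52% and 2.23% were higher and 15.8%, 6.44% and 2.94% lower. The medians of all genes were -0.27, -0.13 and -0.11.

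Of 25 calcium handling and signalling genes, 3 were higher and 11 lower against Myh4-dominant, 3 and 7 against Myh1-dominant, and 2 and 2 against Myh2-dominant nuclei. Their medians (-0.32, -0.23 and -0.06) lay near those of all genes (-0.27, -0.13 and -0.11), which were also lower more often than higher. Lower calls were more common in this list than among all genes, of which 15.8%, 6.44% and 2.94% were lower. Of all genes 7.2%, 4.52% and 2.23% were higher against the 3 classes. Sln, sarcolipin, a small inhibitor of the calcium pump, was higher against all 3 (3.70, SE 0.43; 2.85, SE 0.50; 3.77, SE 0.53). It was scarce, with 8 and 11 UMIs in the 10x Slow sums of Old and Sedentary and 14, 43, 1 and 0 UMIs in those of Old, Young, Running and Sedentary of the second set. Rcan2, an inhibitor of calcineurin, was higher against Myh4-dominant nuclei (2.10, SE 0.23). Ryr1, the calcium release channel, was lower against Myh4- and Myh1-dominant nuclei (-0.81 and -0.44), and Camk2g fell by 1.14, 1.21 and 0.78 against the 3 classes.

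The genes with the greatest falls outside these lists were named by size of change. Against Myh4-dominant nuclei they included Casr, the calcium-sensing receptor (-3.81, SE 0.51), which had 0 to 5 UMIs in any Slow sum, Igfn1, a muscle immunoglobulin-domain protein (-3.40), Gdap1 (-3.28), Parm1 (-3.15) and Raet1e (-3.09, SE 0.31), whose locus overlaps the antisense gene Gm26740. Against Myh1-dominant nuclei they included Cntfr, a receptor subunit for ciliary neurotrophic factor (-3.48, SE 0.52), Tbc1d1, a regulator of glucose transporter traffic (-3.04, SE 0.22), Padi2 (-2.65), Myom2, an M-band protein (-2.61), and Il15 (-2.38). Against Myh2-dominant nuclei Cntfr (-3.23), Scn2a, a sodium channel (-2.98), Padi2 (-2.57), Agbl1 (-2.54, SE 0.29) and Il15 (-2.33) were among them. Tbc1d1 was at 129 to 263 CPM in the 6 Slow sums and at 646 to 2259 CPM in the Myh1- and Myh4-dominant sums of those libraries, with no overlap.

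Among the genes named for the size of their rise, Dkk2 was the only one other than sarcomere genes, the calcium pump Atp2a2 and the Myh7 locus. Dkk2, a secreted modulator of Wnt signalling, had log2 fold changes of 5.26 (SE 0.33) and 4.91 (SE 0.32) against Myh1- and Myh2-dominant nuclei. It stood at 436 (Old) and 164 CPM (Sedentary) in 10x Slow nuclei, and at 80.7 (Old), 1240 (Young), 1110 (Running) and 2211 CPM (Sedentary) in the second set. In Myh2-dominant nuclei Dkk2 was at 5.8 to 55.6 CPM over those libraries. The level in Slow nuclei was above that in each fast class in all 6 libraries, and among the Slow sums it was lowest in the Old library of the second set.

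Genes of innervation and of damage moved in small numbers. Of 15 denervation genes tested, 2 were higher and 2 lower against Myh4-dominant, 2 and 0 against Myh1-dominant, and 2 and 1 against Myh2-dominant nuclei (median -0.29, -0.09 and 0.33). The counts in this paragraph are to be read against all genes. Of these 7.20%, 4.52% and 2.23% were higher and 15.8%, 6.44% and 2.94% lower against the 3 classes. Chrna1, the alpha subunit of the acetylcholine receptor (2.01, 1.72 and 1.79), and Ncam1, an adhesion molecule of denervated fibres (1.62, 2.06 and 2.27), were higher against all 3 classes. Of 13 neuromuscular junction genes 2, 3 and 4 were higher and 1, 0 and 2 lower against Myh4-, Myh1- and Myh2-dominant nuclei. The medians of this list were 0.62, 0.75 and 1.28 in the 10x libraries and -0.73, -0.27 and -0.52 in the second set, so no common direction can be given. Ano4 was higher in the joint fit (1.56 and 1.93 against Myh4- and Myh1-dominant nuclei), but it was 3.06 in the 10x libraries and -0.92 in the second set against Myh4-dominant nuclei. Of 16 atrophy and FoxO genes, 1, 2 and 1 were higher and 3, 1 and 2 lower against the 3 classes. Among them Trim63, a ubiquitin ligase, was lower against all 3 (-1.59, -0.94 and -0.86) and Bnip3, a mitophagy receptor, higher against all 3 (1.01, 1.18 and 0.85). The 8 DNA repair genes and 8 proteostasis genes that the study named on these samples, and which are therefore not independent evidence, were not called higher in any comparison, while 6, 2 and 0 of the former and 5, 3 and 2 of the latter were lower.

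None of 5 endothelial markers was called in any comparison, and their sum was 36.2 to 233 CPM in Slow and 46.2 to 336 CPM in Myh4-dominant nuclei. The fibro-adipogenic markers summed to 112 to 439 CPM in Slow and 107 to 671 CPM in Myh4-dominant nuclei, with 2 of 3 lower against Myh4-dominant nuclei. Both adipocyte markers, Adipoq (-2.42, SE 0.65) and Plin1 (-1.87, SE 0.59), were also lower against Myh4-dominant nuclei, and not called against the other classes. The markers that rose were Pax7 of muscle stem cells (1.36, 2.39 and 1.63, at most 25 UMIs in a sum), Mrc1 of macrophages against Myh1- and Myh2-dominant nuclei (1.40 and 1.06) and Thbs4 of tenocytes against all 3 classes (1.76, SE 0.52; 1.68, SE 0.56; 2.67, SE 0.61). For Thbs4, 49 of the 55 UMIs in Slow sums came from the Young library of the second set, and its values in the 10x libraries were -0.68, -1.08 and -0.19. The general myofibre markers Ttn and Neb were not called in any comparison, and Acta1, skeletal actin, was higher by 0.76, 0.81 and 0.54. Dmd, dystrophin, was lower against Myh4- and Myh1-dominant nuclei (-0.64 and -0.55), and Ckm, muscle creatine kinase, against Myh4-dominant nuclei (-0.79).

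The age comparison within Slow nuclei rested on the Old libraries of both sets and the Young library of the second set, since the Young 10x library had no Slow nucleus. None of 6670 genes, the 4 myosins of the rule included, was called (0%, edgeR's quasi-likelihood test with Benjamini-Hochberg adjustment, 1 residual degree of freedom), while 122 had an unadjusted p under 0.05 (1.83%), and DESeq2 called 0, with 16 at an unadjusted p under 0.05. The 3 genes with the smallest p were Dag1, dystroglycan, Ston2, an endocytic adaptor, and Agbl1, a tubulin deglutamylase. Dag1 had 183 and 3 UMIs in the Old Slow sums (274 and 60.5 CPM) and 119 UMIs in the Young one (320 CPM), a log2 fold change of -2.98 (SE 0.90). Agbl1 was at 977 and 1029 CPM in Old and 2497 CPM in Young (-1.75, SE 0.59), and Ston2 at 177 and 40.4 CPM in Old and 196 CPM in Young (-3.35, SE 1.08). All 3 had an adjusted p of 1.

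The slow genes themselves showed no called difference with age. Tnnt1 was at 9200 CPM in Old and 7930 CPM in Young Slow nuclei of the second set (fitted -0.28, SE 0.54, adjusted p = 1 in edgeR's test), and Atp2a2 at 6981 and 5745 CPM (-0.02, SE 0.55). The medians were -0.24 for 16 slow and -0.71 for 14 fast contractile genes outside the rule, -0.40 for 29 glycolysis genes and -0.21 for 42 respiratory chain genes, beside a median of -0.32 for all genes. Among the 16 genes that the study named, the medians were -0.39 (DNA repair) and -0.18 (proteostasis), and none was called.

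The running comparison within Slow nuclei rested on the Running library of the second set, with 28 Slow nuclei, and both Sedentary libraries. Myh7 was not the largest of the 4 myosins in 14 of these 28 nuclei. In the Sedentary libraries this held for 2 of 370 (10x) and 6 of 25 Slow nuclei (second set). Only 1 of the 28 Running nuclei had at least 5 Myh7 UMIs and a Myh7 share of at least 60%. None of 6670 genes was called (0%), while 104 had an unadjusted p under 0.05 (1.56%), and DESeq2 called 0, with 26 at that level. The 3 genes with the smallest p all had libraries at 0. Rspo3, a Wnt agonist, had 0 UMIs in the Running sum and 214 and 10 in the 10x and second-set Sedentary sums. Erbb4, a neuregulin receptor, had 0 UMIs in the Running sum and 143 and 8 in the Sedentary sums. Otud4, a deubiquitinase, had 8 UMIs in the Running sum and 168 and 0 in the Sedentary sums. The Running sum held 40127 UMIs and that of the Sedentary library of the same set 28261, so no direction can be read from these counts.

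For Ldha, the value was 645 CPM (25 UMIs) in Running Slow nuclei, 23.2 CPM (23 UMIs) in the 10x Sedentary sum and 145 CPM (4 UMIs) in that of the second set. Its fitted log2 fold change of 2.27 (SE 0.87) had an adjusted p of 1 in edgeR's test. Medians were -0.10 for 16 slow and 0.92 for 14 fast contractile genes outside the rule, 0.44 for glycolysis and 0.56 for respiratory chain genes, beside -0.03 for all genes, and no member of these lists was called. In data simulated on these libraries, an 8-fold change was called in 23.4% of genes for age and 6.15% for running, and a 2-fold change in 0.

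A last pair of comparisons asked whether age or running changed Slow nuclei differently from Myh4-dominant nuclei of the same libraries. The fit had no term for a class difference that varies with the library set. Young and Running had Slow sums in the second set only, so the library set is mixed into both comparisons. With such a term, the median log2 fold change of all genes moved from -0.08 to -1.09 for age and from -1.43 to 0.13 for running. Of 17994 genes none was called for age or for running (0% for both, edgeR's quasi-likelihood test with Benjamini-Hochberg adjustment on 12 sums with 2 residual degrees of freedom). At an unadjusted p under 0.05 there were 527 genes (2.93%) and 297 genes (1.65%), and DESeq2 called 0 for both, with 74 and 83 at that level. Simulated differences of 8-fold were called in 0% of genes in these fits, so the counts of 0 say little.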

How the data were processed

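Single nuclei of the gastrocnemius were sequenced in 8 libraries, 2 per group. The authors made the files by aligning the reads to mm10 and counting UMIs, with Cell Ranger 6.1.2 (10x libraries) or PISA (second library set), and deposited the UMI counts without normalization, 1 matrix a library. Whether the counting used strand or introns is not given in the sources used here. The study used Seurat 4.1.1 for its own analysis, with a Wilcoxon test over single nuclei that was not repeated here, since nuclei are not replicates. The labels number no replicates, and the numbers used here follow accession order and pair nothing.

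Filtering of nuclei followed the limits of the study (detected genes above 200 and below 6000, mitochondrial UMIs below 6%) and kept 64803 of 65280. The 21207 gene symbols present in all files were used, without 12 mitochondrial and 83 ribosomal genes. No doublet caller was run, and leaving out the 6% of nuclei with the most UMIs in each library, which left 707 Slow nuclei, was tried as an alternative. UMIs were summed per library and class where a class had at least 20 nuclei, and CPM were computed on these sums. The sums were tested with edgeR 4.0.16 (limma 3.58.1, R 4.3.3, TMM scaling, filterByExpr, quasi-likelihood F-test, Benjamini-Hochberg, threshold 0.05), with DESeq2 1.42.0 as an alternative. Class comparisons had the library as a block and group comparisons had the library set as a covariate. The comparisons of age or running between classes had the library as a block and no term for class by library set. The standard error is the log2 fold change divided by the root of F. Where an arm held 1 library, that library was assumed to vary like the other groups. Detection shares, ratios and sequence matches were computed in Python 3.11.15.

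Named genes were up to 10 called genes in each direction ranked by fold change, whose log2 CPM averaged 5 or more and whose sign did not differ between libraries holding both classes, or the 3 genes with the smallest p where none was called, besides genes of the lists. The Slow nuclei, the lists and the comparisons were chosen with earlier results of these data known. Counts were simulated for each fit from a single mean profile and a common dispersion, with no difference between library sets and no free RNA. The 200 changed genes were expected at a UMI or more in the smallest sum. Recovery rates hold for these settings, which are simpler than the data. Of 2-fold changes, 94.0% against Myh4-dominant nuclei were recovered, 86.6% against Myh1-dominant and 89.6% against Myh2-dominant nuclei, over 10990 genes. All 4-fold changes were recovered in these 3 comparisons. For Old against Young 0% of 2-fold and 3.03% of 4-fold changes were recovered over 6034 genes, and for Running against Sedentary 0% of both over 5470 genes. A few items are not reported here, though they count in the numbers given for their lists.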

Additional observations from a re-analysis of the deposited data

Results flagged for a closer look

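The share of Slow nuclei was 50.5 times higher in Old than in Young among the 10x libraries and 0.194 times as high in the second library set. For the first ratio a limit of 3 nuclei was taken for the Young library, which held 0. This share stands here because the library sets moved in opposite directions, with 1 library per group and set. The difference between the library sets was not tested.

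The share in Running was 0.0154 times that in Sedentary among the 10x libraries and 1.12 times in the second set. It is given for the same reason, and this difference was not tested either.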

How the results depend on the processing

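Genes named for the size of their change made up most of 66 gene and comparison pairs, and were taken only where their sign did not differ between libraries, which favours stable values. Of 1068 values of these pairs under alternative settings, 1067 kept their direction and, where the fit gave a p-value, their side of the threshold. Tmem56 against Myh1-dominant nuclei was no longer called in the second library set alone (-0.97). Genes named from the lists were not held to that choice, and against Myh4-dominant nuclei Ano4 (1.56) was -0.92 in the second set and Thbs4 (1.76) was -0.68 in the 10x libraries. Counts of genes moved with the libraries. With the second library set alone, an alternative chosen after seeing the data, 1095, 585 and 387 genes were called against Myh4-, Myh1- and Myh2-dominant nuclei, where fewer sums and genes entered. Without Sedentary replicate 1, the 10x library with most Slow nuclei, the counts were 1973, 821 and 378, and without Young replicate 2 the last was 456. Leaving out 1 library in turn gave 1973 to 2999, 821 to 1541 and 378 to 775 genes. The age difference that differs between Slow and Myh4-dominant nuclei ranged from 0 to 129 genes, the 129 without Old replicate 2, and the running one stayed at 0. Without Old replicate 2, the Old Slow sum came from a 10x library and the Young Slow sum from the second set. That fit had no term for class by library set, so age cannot be separated from the library set in its count. The cause of the changes in these counts was not tested.

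The log2 fold change of the share of Slow nuclei, Old against Young, changed sign with the stricter rule of 5 Myh7 UMIs and 60% (-0.12), with no library set term (-0.88), and without Old replicate 1 (-1.40), Young replicate 1 (-2.04), Running replicate 1 or Running replicate 2 (-0.86 for both). It ranged from -2.04 to 9.53 over the libraries left out. For the share of Slow nuclei, Running against Sedentary, the range was -6.03 to 0.21, the last without Sedentary replicate 1. None of these had an adjusted p under 0.05 in edgeR's test.

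No paired analysis was possible because the labels number no replicates. Age and running within Slow nuclei could not be fitted with the stricter rule, with the libraries of the groups compared only, or without Young replicate 2 (age) or Running replicate 2 (running), since no residual degree of freedom or no arm was left. Without an Old or a Sedentary library these fits gave fold changes but no p-value, since no residual degree of freedom was left. A minimum of 10 nuclei per sum gave the same sums. The Slow sums of the Running, Sedentary and Old libraries of the second set came from 25 to 34 nuclei, and these comparisons had 1 residual degree of freedom.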

Other observations

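Among genes of the myotendinous junction, where a fibre meets its tendon, Fras1, a basement membrane protein, was higher in Slow than in Myh4- and Myh1-dominant nuclei (2.20, SE 0.32, and 1.74, SE 0.34, on the log2 scale) and not called against Myh2-dominant nuclei (0.62, SE 0.32). Col22a1 and Ankrd1, which mark that junction, were not called in any of the 3 comparisons. Ryr3, a calcium release channel less common in adult muscle than Ryr1, was higher against Myh1- and Myh2-dominant nuclei (1.42, SE 0.39, and 1.60, SE 0.40) and not called against Myh4-dominant nuclei (0.27, SE 0.35).

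Agbl1 separated the classes in another order. It stood at 977 (Old) and 1516 CPM (Sedentary) in 10x Slow nuclei, at 5523 and 9858 CPM in Myh2-dominant, 2967 and 6719 CPM in Myh1-dominant and 224 and 925 CPM in Myh4-dominant nuclei. The Slow level was between those of the Myh4- and Myh1-dominant nuclei in both of these libraries. In the second set the Slow level of Agbl1 was 671 to 2497 CPM and that of Myh4-dominant nuclei 719 to 3079 CPM, so there they overlapped.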
